A study of Homo sapiens with 18 samples.

Results

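The comparison described here is that of KDM5C shRNA with the scramble control shRNA (SCR) in VHL-/- 786-O cells, a human clear cell renal carcinoma line that lacks working VHL. Its members are the 3 arrays labelled VHL-/- with KDM5C shRNA and the 3 labelled VHL-/- with scramble shRNA, 6 of the 18 Illumina HumanHT-12 V4 expression arrays of the series, and the change is described across all 13141 genes of the deposited table. Of the other 12 arrays, 3 are labelled as VHL-/- cells carrying PBRM1 shRNA, and 9 as VHL+/+ cells, in which VHL was put back and which carried the same 3 hairpins. All cells, the controls included, carried a stably expressed hairpin and were cultured without treatment, and a single hairpin stood for each target gene. Replicates 1 and 2 of each group lay on chip 1 and replicate 3 on chip 2. The labels do not say whether replicates came from separate cultures, so p-values measure only the spread between these arrays.

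VHL is the substrate receptor of the ubiquitin ligase that marks the hypoxia-inducible factors (HIF) for destruction, and VHL-/- cells therefore hold HIF at a constant high level. KDM5C is a demethylase that removes methyl groups from lysine 4 of histone H3 and acts as a transcriptional corepressor at many promoters and enhancers. Its gene is recurrently inactivated in clear cell renal carcinoma, as is that of PBRM1, a subunit of the PBAF chromatin remodelling complex. The question addressed was which genes respond when KDM5C is depleted in cells that have already lost VHL, beyond the interferon-stimulated genes.

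Values are log2 signals per gene, and a difference of 1 is a doubling of signal. They ran from 6.27 to 14.66 with a median of 7.65. The gene KDM5C has no row in the table, so its depletion cannot be checked here. VHL was 7.64, 7.82 and 7.85 in the SCR arrays and 8.06, 7.99 and 8.002 in the KDM5C shRNA arrays (log2 fold change 0.24, adjusted p = 0.133). In the VHL+/+ SCR arrays VHL was 7.78, 7.84 and 7.92, which overlaps its values in the VHL-/- SCR arrays, and where its probes lie in the reintroduced sequence was not analysed here. PBRM1 was 7.41, 7.24 and 7.26 in the SCR arrays, 7.40, 7.52 and 7.06 in the KDM5C shRNA arrays and 7.16, 7.18 and 7.38 in the arrays labelled PBRM1 shRNA. These groups overlapped too, so neither the VHL+/+ nor the PBRM1 shRNA label is borne out by the RNA of its own gene on these arrays. The probes of PBRM1 were not analysed either. The study also ran western blots on 786-O cells carrying shRNA against PBRM1 or KDM5C, and arrays do not measure protein. In the SCR arrays the renal carcinoma markers VIM (mean 13.90), CD70 (12.42), NNMT (10.58), CDH6 (9.62), KRT8 (9.43) and PAX8 (8.71) lay above the median of all genes, while CA9, PAX2, LRP2, MME and NDUFA4L2 have no row. The 2 endothelial markers present lay at 6.72, and the 5 leukocyte markers had a median of 6.78, with CD68 the highest at 8.91. Arrays of one group correlated with r of 0.978 to 0.994 across genes, and 3130 genes differed between the chips over all groups at adjusted p under 0.05, and the chip is a term of the model.

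A small part of the transcriptome differed between the KDM5C shRNA and the SCR arrays, in both directions. Whether these differences come from loss of KDM5C, from its hairpin or from the SCR cells was not tested. Of 13141 genes, 192 (1.46%) were called, which means an adjusted p under 0.05 in limma and a change of at least 1.5-fold. Of these, 106 (0.807%) were higher and 86 (0.654%) were lower with KDM5C shRNA. Of the 86 lower genes, 41 are on a list of interferon-stimulated genes and 45 are not, and none of the 106 higher genes is on that list. The higher genes thus all lay outside the interferon list and had a median log2 fold change of 0.74 and a largest one of 1.85. Without a fold threshold, 628 genes (4.78%) passed, 316 higher and 312 lower. At a threshold of 2-fold, 43 genes passed, 19 higher and 24 lower. Across all genes the log2 fold changes had an SD of 0.20, and 85.9% of them lay within 0.25 of 0.

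**Figure D1:**
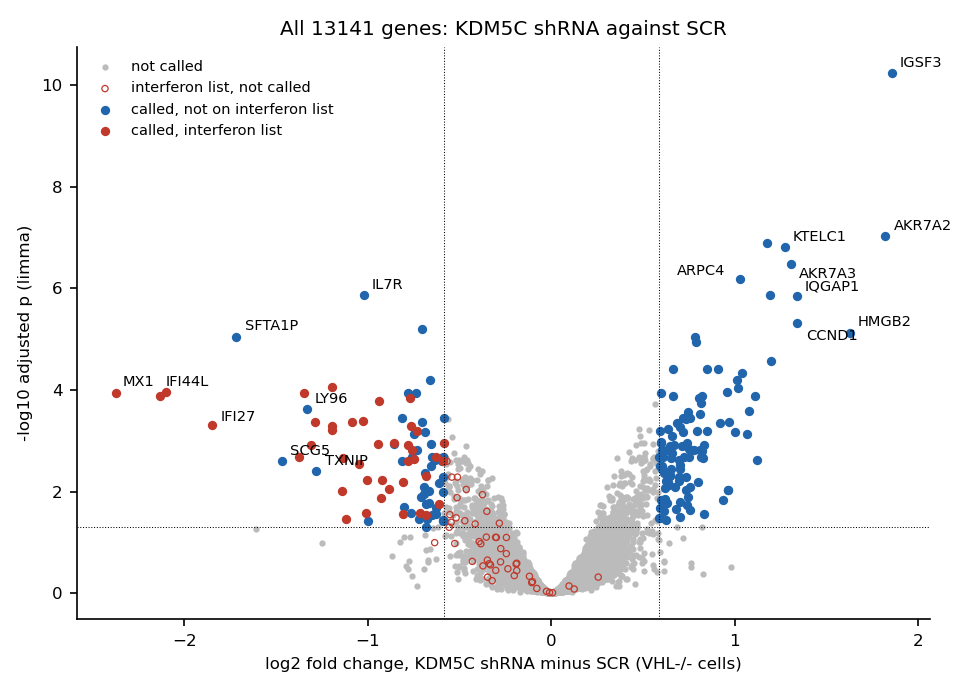
Each point is 1 of the 13141 genes, with the log2 fold change of KDM5C shRNA over SCR in VHL-/- cells on the x axis and -log10 of the limma adjusted p on the y axis, and dotted lines mark the call thresholds. The 106 genes called higher (right) hold no member of the interferon list, and the largest falls (left) are mostly members of it.

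The called genes lay towards the brighter end of the array. When the genes were split into 4 equal groups by mean signal, the dimmest group held 0 genes called higher and 2 called lower, the second 6 and 17, the third 40 and 32, and the brightest 60 and 35. The SD of the log2 fold change itself rose from 0.091 in the dimmest to 0.258 in the brightest group. After removal of the chip term, the 3 KDM5C shRNA arrays lay entirely outside the range of the 3 SCR arrays for all 106 higher and all 86 lower genes, where 22.3% of all genes did. The calls themselves use this contrast, so that count describes them and adds nothing to them. The differences had the same sign on each chip for all 192 genes. The calls were made from the arrays of both chips together, so this too describes the called genes and adds nothing to the calls. The medians of the higher genes were 0.73 on chip 1 and 0.80 on chip 2, those of the 45 lower genes outside the interferon list -0.70 and -0.76, and those of the 41 on it -1.14 and -0.67. At the edge of the fold threshold lay a gene called at a log2 change of 0.5854, and the largest change that passed the adjusted p but not the fold was 0.5847.

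The genes that rose most outside the interferon list have diverse known roles. IGSF3, a membrane protein of the immunoglobulin superfamily, read 6.96, 6.995 and 7.01 in the SCR arrays and 8.77, 8.99 and 8.77 in the KDM5C shRNA arrays. The groups were far apart, with a log2 fold change of 1.85 (SE 0.07, adjusted p = 5.73e-11), and the SCR values lay below the median signal of all genes. AKR7A2, an aldehyde reductase that detoxifies reactive aldehydes, read 9.22, 9.09 and 8.92 with SCR and 10.93, 10.76 and 11.01 with KDM5C shRNA (log2 fold change 1.82, SE 0.11, adjusted p = 9.25e-08). Its neighbour and close relative AKR7A3 read 7.62, 7.51 and 7.52 with SCR and 8.59, 8.92 and 9.06 with KDM5C shRNA (log2 fold change 1.31, SE 0.09, adjusted p = 3.25e-07). The pair rose together on every array, but since they are close paralogs and probe sequences were not analysed here, their signals may not be fully separate. HMGB2, a DNA-bending chromatin protein, read 8.83, 8.52 and 8.58 with SCR and 10.09, 10.48 and 10.23 with KDM5C shRNA, a log2 fold change of 1.62 (SE 0.15, adjusted p = 7.43e-06).

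CCND1, IQGAP1, ARPC4, TPM1, GAS6 and STMN3 were also called higher. CCND1 encodes cyclin D1, the partner of CDK4 and CDK6 at the entry into the cell cycle and a HIF2 target in this cell type. It read 11.18, 11.16 and 11.04 with SCR and 12.35, 12.31 and 12.74 with KDM5C shRNA, a log2 fold change of 1.34 (SE 0.12, adjusted p = 4.84e-06). IQGAP1, a scaffold between small GTPases and actin, read 8.58, 8.54 and 8.43 with SCR and 9.98, 9.89 and 9.69 with KDM5C shRNA (log2 fold change 1.34, SE 0.11, adjusted p = 1.44e-06). ARPC4, a subunit of the actin-branching Arp2/3 complex, read 8.42, 8.37 and 8.28 with SCR and 9.37, 9.42 and 9.36 with KDM5C shRNA (log2 fold change 1.03, SE 0.08, adjusted p = 6.49e-07). Both were separated from SCR by many times their SE. TPM1, the actin-binding tropomyosin, read 10.45, 10.64 and 10.51 with SCR and 11.74, 11.46 and 11.52 with KDM5C shRNA (log2 fold change 1.04, adjusted p = 4.53e-05). GAS6, the ligand of the TAM receptors TYRO3, AXL and MERTK, read 7.52, 7.43 and 7.22 with SCR and 8.71, 8.67 and 8.36 with KDM5C shRNA (log2 fold change 1.19, adjusted p = 1.37e-06). STMN3, a microtubule-destabilising stathmin best known from neurons, read 7.60, 7.61 and 7.52 with SCR and 8.30, 9.40 and 8.39 with KDM5C shRNA, so that 1 of the 3 shRNA arrays lay about 1 unit above the others (log2 fold change 1.12, SE 0.19, adjusted p = 0.00243). Its call ended when the spread was taken from the 6 arrays alone (adjusted p = 0.0557).

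The remaining genes among the 15 largest rises were KTELC1 (1.27), now POGLUT1, which adds glucose to Notch receptors, and ADO (1.197), a thiol dioxygenase. They also included C2CD2 (1.18), SLC31A1 (1.11), the main copper importer, RNY4 (1.08), a small non-coding Y RNA, and TMEM109 (1.07), given as log2 fold changes, and all 6 had adjusted p of 0.000729 or lower. KTELC1 read 7.87, 7.87 and 7.73 with SCR and 9.32, 9.03 and 8.94 with KDM5C shRNA, and SLC31A1 read 8.80, 8.96 and 8.68 and 10.22, 9.90 and 9.64. Neither pair of groups overlapped. Of the 106 higher genes, 16 are on any of the other lists examined, with each list member matched to a single row. Most of the rise thus lay in genes that those lists do not hold.

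**Figure D2:**
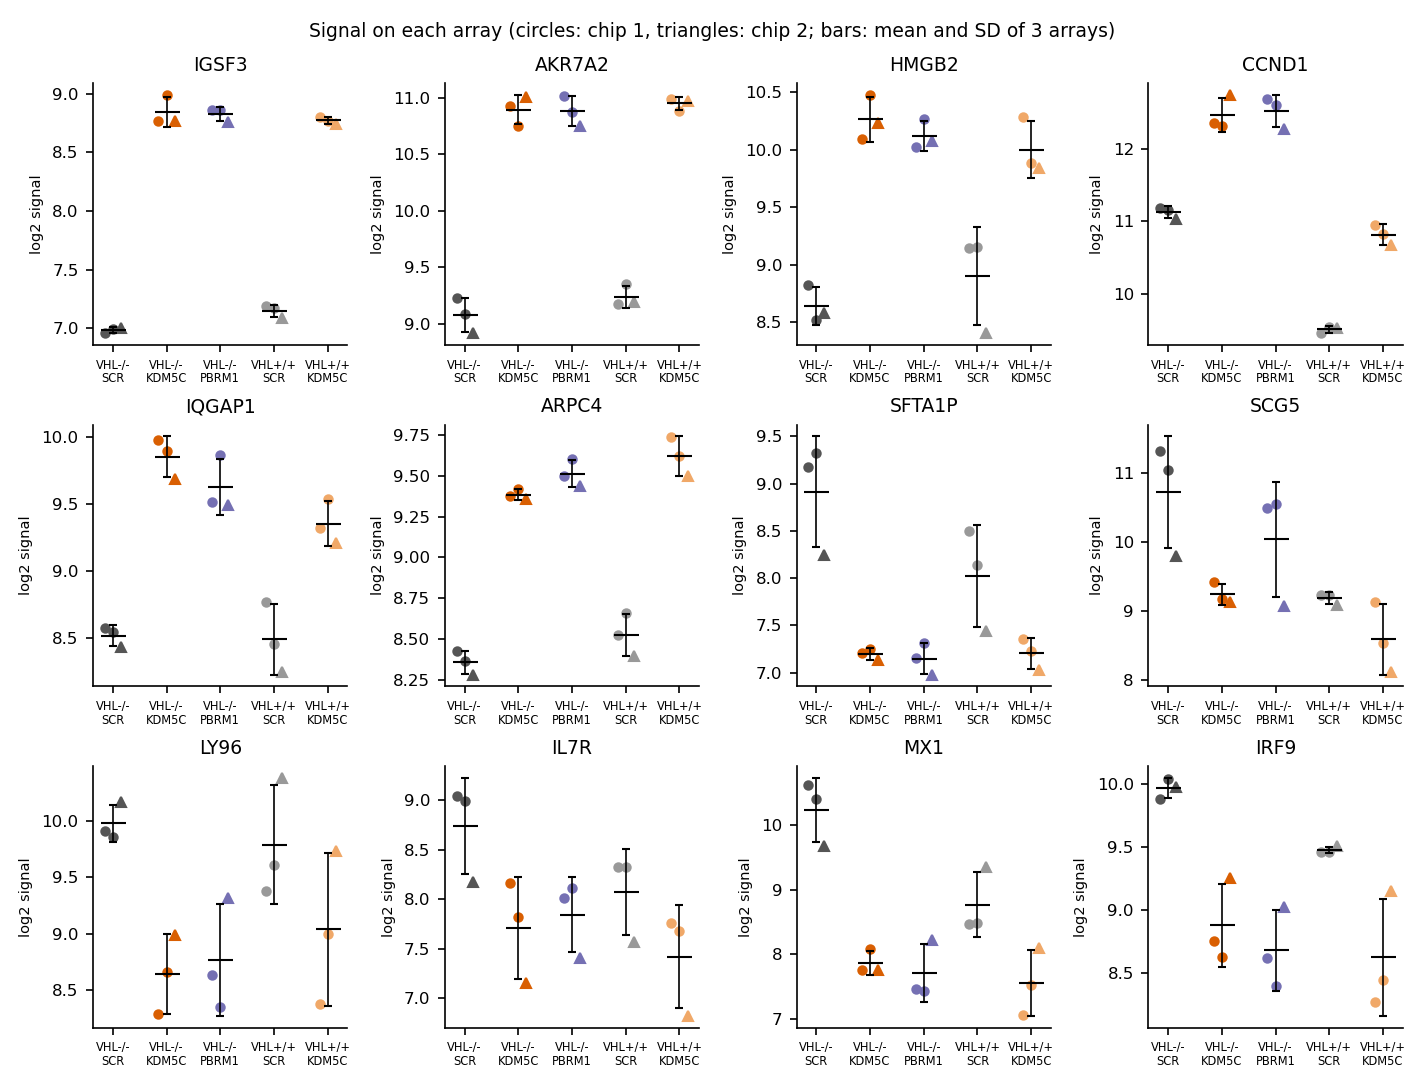
Each panel shows the log2 signal of 1 gene (y axis) on every array of 5 groups (x axis), with circles for chip 1, triangles for chip 2 and bars for the mean and SD of 3 arrays. The first 6 panels are genes higher with KDM5C shRNA than with SCR and the last 6 are lower ones, and the VHL-/- PBRM1 shRNA arrays lie near the KDM5C shRNA arrays in most panels, with SCG5 an exception on chip 1.

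Outside the interferon list, the largest falls included secreted, receptor and stress genes. SFTA1P, a surfactant-associated pseudogene transcribed as a non-coding RNA, read 9.17, 9.33 and 8.24 with SCR and 7.21, 7.25 and 7.13 with KDM5C shRNA (log2 fold change -1.72, SE 0.16, adjusted p = 8.92e-06). SCG5, the chaperone 7B2 of the prohormone convertase PCSK2, read 11.32, 11.03 and 9.80 with SCR and 9.42, 9.18 and 9.14 with KDM5C shRNA (log2 fold change -1.47, SE 0.26, adjusted p = 0.00254). In both genes the SCR array on chip 2 was the lowest of its group, and the difference was larger on chip 1 (-2.02 and -1.87) than on chip 2 (-1.11 and -0.66). LY96, the co-receptor MD-2 through which TLR4 binds endotoxin, read 9.91, 9.86 and 10.17 with SCR and 8.29, 8.66 and 8.99 with KDM5C shRNA (log2 fold change -1.33, SE 0.17, adjusted p = 0.000241). IL7R, the interleukin-7 receptor chain, read 9.04, 8.99 and 8.18 with SCR and 8.16, 7.82 and 7.16 with KDM5C shRNA, and its difference was -1.02 on chip 1 and -1.02 on chip 2 (log2 fold change -1.02, SE 0.08, adjusted p = 1.37e-06). TXNIP, which binds thioredoxin and restrains glucose uptake, read 9.89, 9.88 and 10.91 with SCR and 8.14, 8.70 and 10.01 with KDM5C shRNA. Its groups overlapped as deposited, because both chip 2 arrays were brighter, and were apart once the chip was removed (log2 fold change -1.28, SE 0.24, adjusted p = 0.00393). Without the chip term the calls of SCG5 (adjusted p = 0.0712), TXNIP (0.294) and IL7R (0.164) ended.

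Smaller falls touched small heat shock proteins and further genes of diverse function. CRYAB, the chaperone alpha-B crystallin, read 7.52, 7.65 and 7.58 with SCR and 6.79, 6.87 and 6.75 with KDM5C shRNA (log2 fold change -0.78, adjusted p = 0.000112). HSPB8, a small heat shock protein that works with BAG3, read 9.69, 9.84 and 10.01 with SCR and 8.83, 9.33 and 9.11 with KDM5C shRNA (log2 fold change -0.76, adjusted p = 0.00209). CD69 (-0.75), an early activation antigen of lymphocytes, C6ORF58 (-0.86), FAM46A (-0.81, with adjusted p = 0.0954 without the chip term), now TENT5A, C4ORF18 (-0.74), now GASK1B, and KIAA1618 (-0.81), now RNF213 and known to be induced by interferon although not on the list, were called lower as well. CD69 belonged to the dimmest group of genes and read 6.83, 6.77 and 6.74 with KDM5C shRNA. Apart from KIAA1618, whether the genes off the list respond to interferon was not examined. The calls of C15ORF48 (-0.999), TMEM22 (-0.80) and KIAA1324 (-0.76) each ended when single arrays were left out. Without KDM5C shRNA replicate 3, for example, their adjusted p was 0.167, 0.0892 and 0.123. The same happened without SCR replicate 1 for C15ORF48 (0.173) and KIAA1324 (0.104), without SCR replicate 2 for C15ORF48 (0.119) and TMEM22 (0.0887), and without SCR replicate 3 for TMEM22 (0.0809) and KIAA1324 (0.128). Without KDM5C shRNA replicate 2 the adjusted p of the 3 genes lay between 0.0538 and 0.0696.

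Of the interferon-stimulated genes, 41 of 90 were called lower, where 0.654% of all genes were, MX1 with the largest fall of all genes tested. ISGF3, a complex that holds STAT2 and IRF9, activates these genes through a short promoter element, and both STAT2 and IRF9 are themselves interferon targets. Of the 90 list members in the table, 0 were called higher, 86 lay below 0, and the median log2 fold change was -0.55, where the median of all genes was -0.002. The list was written with earlier results of these data known, and its median was -0.62 on chip 1 and -0.42 on chip 2. MX1, an antiviral GTPase, read 10.62, 10.41 and 9.67 with SCR and 7.76, 8.08 and 7.75 with KDM5C shRNA (log2 fold change -2.37, SE 0.28, adjusted p = 0.000112). Within the list, the largest falls after it were those of IFI44L (-2.13), EPSTI1 (-2.101), IFI27 (-1.85), IFI6 (-1.38), SAMD9 (-1.35), IFIT1 (-1.31), which binds viral RNA ends, and SAMD9L (-1.29). Of these ISGF3 subunits, IRF9 read 9.88, 10.04 and 9.97 with SCR and 8.75, 8.63 and 9.25 with KDM5C shRNA (log2 fold change -1.09, SE 0.15, adjusted p = 0.000419). STAT2 read 9.84, 9.93 and 9.82 with SCR and 8.54, 8.78 and 9.25 with KDM5C shRNA (log2 fold change -1.005, SE 0.20, adjusted p = 0.0059, and 0.106 without the chip term). ISG20, an exonuclease of the interferon response, read 8.84, 8.81 and 8.45 with SCR and 7.63, 7.66 and 7.40 with KDM5C shRNA (log2 fold change -1.14, adjusted p = 0.00972). Its adjusted p was 0.0505 without KDM5C shRNA replicate 3, 0.0586 without SCR replicate 1 and 0.0539 without SCR replicate 2.

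Promoters were searched for the interferon response element. The searched window ran from 250 bases before to 50 bases after each start in the RefSeq annotation of GRCh38.p14, and the core of the element, TTTC and TTTC again after any 2 bases, was searched on both strands. It was found in 21 of 34 promoters of genes on the list that were called lower (61.8%), in 22 of 35 on the list that were not called (62.9%), in 0 of 31 of the lower genes outside the list, in 3 of 88 of the higher genes (3.41%) and in 289 of all 10020 promoters matched (2.88%). The share was thus much the same in list members that were called and in those that were not. The following stretches of 100 bases, 5′ to 3′ on the strand of the gene, are shown because they hold the element, in capitals, in 4 of the 8 genes of the list with the largest falls. Of those 8, IFI44L and SAMD9, not printed, also hold a match in the 250 bases before the start. MX1, which fell most, and SAMD9L hold none there. For single genes the 50 bases after the start were not examined.
IFIT1, chr10:89392487-89392586, plus strand: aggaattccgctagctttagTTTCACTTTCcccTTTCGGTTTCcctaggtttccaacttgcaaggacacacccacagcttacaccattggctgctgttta
IFI27, chr14:94110608-94110707, plus strand: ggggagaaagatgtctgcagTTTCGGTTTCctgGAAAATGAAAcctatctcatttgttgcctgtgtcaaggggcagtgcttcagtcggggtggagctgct
IFI6, chr1:27672269-27672368, minus strand: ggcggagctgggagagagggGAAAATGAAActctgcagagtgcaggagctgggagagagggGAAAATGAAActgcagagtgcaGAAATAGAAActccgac
EPSTI1, chr13:42992242-42992341, minus strand: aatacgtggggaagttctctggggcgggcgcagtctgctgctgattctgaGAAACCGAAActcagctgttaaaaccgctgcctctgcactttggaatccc
IFIT1 and IFI27 held 2 matches each in these stretches, IFI6 held 3 and EPSTI1 held 1. A match is a description of letters and not of bound protein. The other motifs searched were ACGTG (HIF), TTTCCCGC (E2F), TTCNNNGAA (the interferon gamma activated site) and TGACNNNGC (antioxidant element). Among the higher genes, ACGTG was found in 26.1% of promoters against 26.6% of all, TTTCCCGC in 5.68% against 2.65%, TTCNNNGAA in 3.41% against 6.57% and TGACNNNGC in 18.2% against 15.1%. In the lower genes outside the list the shares were 25.8%, 0%, 16.1% and 12.9%, and in the lower genes on it 17.6%, 11.8%, 23.5% and 20.6%. The TTTCCCGC letters can overlap the interferon element, and the differences between these shares were not tested.

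Most proliferation genes lay above 0 by small amounts. Of 59 mitosis genes, 54 lay above 0 with a median log2 fold change of 0.19, but 1 was called higher, where 0.807% of all genes were, namely CDC25B, the phosphatase that activates cyclin-dependent kinases (9.34, 9.38 and 9.64 with SCR and 9.94, 9.77 and 10.52 with KDM5C shRNA, log2 fold change 0.63, adjusted p = 0.00632). Of 46 DNA replication genes, 37 lay above 0 with a median of 0.17, and 2 were called higher. E2F2, a transcription factor of the S phase programme, read 8.57, 8.51 and 8.31 with SCR and 9.14, 9.10 and 9.11 with KDM5C shRNA (log2 fold change 0.65, adjusted p = 0.00355). RPA1, the large subunit of the single-strand DNA binding complex, read 10.07, 10.13 and 9.84 with SCR and 10.13, 10.81 and 10.88 with KDM5C shRNA, so that the lowest shRNA array was level with the highest SCR array (log2 fold change 0.59, adjusted p = 0.0335). No member of either list was called lower. In bulk RNA, more cells in a cell cycle phase and more RNA per cell cannot be told apart. These medians depended on the arrays. Without KDM5C shRNA replicate 3 the median fell to 0.09 for mitosis and 0.080 for DNA replication, CDC25B fell to 0.43 and below the fold threshold, and RPA1 lost its call (0.151). RPA1 also lost it without KDM5C shRNA replicate 2 and without any 1 of the 3 SCR arrays, with adjusted p of 0.0734 to 0.134, and E2F2 fell below the fold threshold without SCR replicate 3 (0.54).

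HIF targets changed in both directions. Of 29 in the table, 4 were called higher and 1 lower, where 0.807% and 0.654% of all genes were, and the median was 0.08. Beside CCND1, the higher ones were EGLN3, the oxygen-sensing prolyl hydroxylase that HIF induces, C7ORF68, now HILPDA, a lipid droplet protein, and TGFA (0.62), the EGF receptor ligand. EGLN3 read 7.25, 7.21 and 7.87 with SCR and 8.06, 7.80 and 8.87 with KDM5C shRNA, with both chip 2 arrays the highest of their groups (log2 fold change 0.80, adjusted p = 0.00654, and 0.118 without the chip term). C7ORF68 read 8.75, 8.75 and 8.83 with SCR and 9.25, 9.68 and 9.65 with KDM5C shRNA (log2 fold change 0.75, adjusted p = 0.00146). EPAS1, which encodes HIF2 alpha, read 8.80, 9.002 and 9.71 with SCR and 9.45, 9.30 and 10.68 with KDM5C shRNA, and its difference of 0.64 did not pass (adjusted p = 0.105), although it did with the spread of the 6 arrays alone (0.0332). Of 19 glycolysis genes, the glucose transporter SLC2A3 was called. It read 9.40, 9.40 and 9.58 with SCR and 9.69, 10.38 and 10.59 with KDM5C shRNA (log2 fold change 0.76, adjusted p = 0.00832). Its call ended without the chip term (0.217), with the spread of the 6 arrays alone (0.0633) and without SCR replicate 3 (0.0567). Without KDM5C shRNA replicate 2 its change fell below the fold threshold (log2 fold change 0.58).

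Actin regulators and aldo-keto reductases rose in single members, not as groups. Of 33 genes on the list of the Arp2/3 complex and actin regulators, 4 were called higher, and the median of the list was -0.005. The 4 were IQGAP1, TPM1, ARPC4 and STMN1 (0.91), although STMN1 is a stathmin and acts on microtubules. Of all genes, 0.807% were called higher. Of 29 NRF2 targets and aldo-keto reductases, 3 were called higher and the median was 0.003. Beside AKR7A2 and AKR7A3 this was AKR1B10, a reductase of retinal and other aldehydes, at 7.71, 8.08 and 8.32 with SCR and 8.99, 9.22 and 8.78 with KDM5C shRNA (log2 fold change 0.96, adjusted p = 0.00945, and 0.0642 without SCR replicate 1). GSTP1, a glutathione transferase that is not on the list, was called lower (-0.69).

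In the inflammatory, heat shock, proteasome and cholesterol lists most genes lay below 0, and few were called. Of 36 inflammatory NF-kB targets, 25 lay below 0 with a median of -0.13, and 2 were called lower, TNFAIP3 among them, where 0.654% of all genes were called lower. TNFAIP3, the ubiquitin-editing inhibitor A20 of NF-kB, read 8.13, 8.20 and 8.14 with SCR and 7.47, 7.64 and 7.25 with KDM5C shRNA (log2 fold change -0.71, adjusted p = 0.0126), and its adjusted p was 0.0646 without KDM5C shRNA replicate 3 and 0.0567 without SCR replicate 2. IL6 read 11.95, 11.92 and 10.75 with SCR and 10.47, 10.30 and 9.02 with KDM5C shRNA. Its difference of -1.61 (SE 0.46) was among the largest of all genes and did not pass (adjusted p = 0.0541), although it did when the spread was taken from the 6 arrays alone (0.0004). IL8, now CXCL8, read 13.39, 13.30 and 12.57 with SCR and 13.000, 12.56 and 11.49 with KDM5C shRNA, and these groups overlapped (log2 difference -0.73, adjusted p = 0.718, and 0.0384 with the spread of the 6 arrays alone). Of 22 heat shock genes, 17 lay below 0 with a median of -0.16, and CRYAB and HSPB8 were the 2 called lower, against the same 0.654% of all genes. Of 32 proteasome genes, 24 lay below 0 with a median of -0.11 and none called, and of 23 cholesterol genes, 18 lay below 0 with a median of -0.15 and none called. Without SCR replicate 3 the medians shrank to -0.058 for heat shock and -0.044 for cholesterol genes.

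In the other lists few or no genes were called, where 0.807% of all genes were called higher and 0.654% lower. Of 45 genes of the extracellular matrix and its proteases, CTGF, now CCN2, was called lower, at 9.43, 9.30 and 8.74 with SCR and 8.60, 8.54 and 8.28 with KDM5C shRNA (log2 fold change -0.68, adjusted p = 0.018). Its call ended without the chip term (0.385), without KDM5C shRNA replicate 1 or 2 (0.0604 and 0.0742) and without SCR replicate 1 or 3 (0.0762 and 0.0621). Of 30 genes of ATF4 signalling and serine synthesis, PSPH, the last enzyme of that synthesis, was called lower (log2 fold change -0.68, adjusted p = 0.049), and it lost its call when any 1 of the 6 arrays was left out (adjusted p of 0.054 to 0.218). Of 21 neuronal genes, which KDM5C is known to repress in other cells, STMN3 was called higher and SCG5 lower, with a median of -0.002. Of 4 fibroblast markers, LUM, a matrix proteoglycan, was called lower at 7.43, 7.73 and 7.82 with SCR and 6.99, 6.77 and 7.02 with KDM5C shRNA. No gene was called among the 23 H3K4 methylation enzymes and KDM5 partners, 16 SWI/SNF subunits, 29 adhesion genes, 18 fatty acid genes, 13 germline genes, 27 p53 targets, 69 genes of the respiratory chain, 22 genes of the unfolded protein response and 19 reference genes, nor among the 11 renal carcinoma, 5 leukocyte and 2 endothelial markers. In these 12 lists, the medians lay between -0.07 and 0.05. The p53 target AEN was counted by the row under its current symbol. Its other row, under the older symbol ISG20L1, was called higher (0.75) and is not in that count. Of the histone enzymes UTX, now KDM6A, had the largest change, -0.36 at adjusted p = 0.0323, below the fold threshold.

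**Figure D3:**
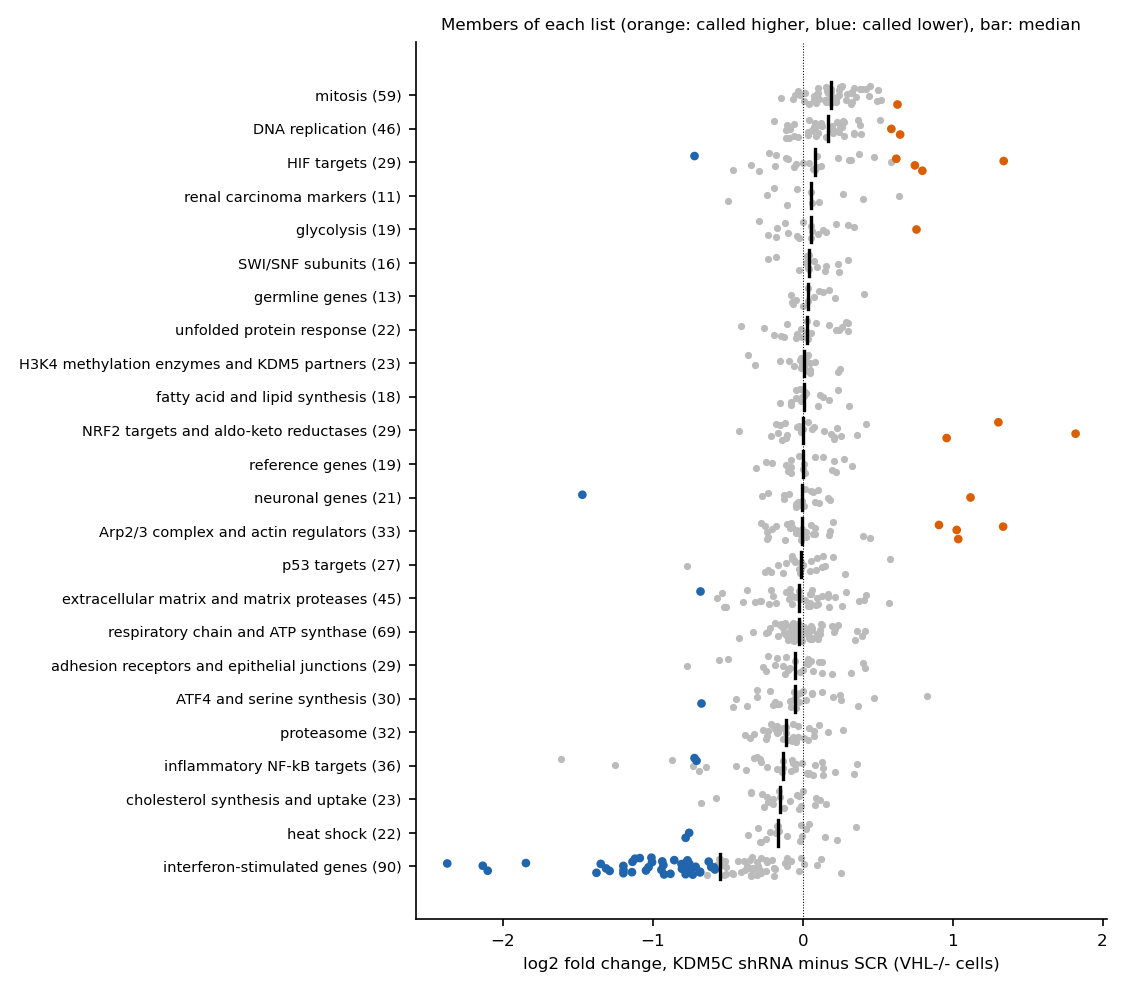
Each point is a gene of a list, placed by its log2 fold change of KDM5C shRNA over SCR in VHL-/- cells (x axis), for the 24 lists with at least 10 genes in the table (number in brackets), with a black bar at the list's median. The interferon list lies far to the left of 0, while the called genes of most other lists stand alone beside a median near 0.

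Several called genes were neighbours in genome order among the genes of the table. Genes without a row may lie between them. Of 12633 pairs of neighbouring genes in the table, both were called in 11, and 8 of these moved the same way. They were AKR7A3 and AKR7A2 on the higher side and, on the lower side, IFI44L and IFI44, IFIT3 and IFIT1, OAS1 and OAS3, OAS3 and OAS2, MX2 and MX1, SAMD9 and SAMD9L, and SIK1 and HSF2BP. The first 7 of these are pairs of related genes. The other 3 pairs moved in opposite directions. ISG20L1 (0.75), now AEN, lies beside ISG20 (-1.14), GTPBP3 (0.62) beside BST2 (-0.61), and ARL6IP6 (0.63) beside FMNL2 (-0.69). AEN has a second row in the table under its current symbol, which was not called (AEN, 0.28).

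The same hairpin in VHL+/+ cells was measured on 6 other arrays, although the spread behind all p-values was estimated over the 18 arrays together. In those cells 150 genes (1.14%) were called, 94 higher (0.715%) and 56 lower (0.426%). Of the 106 genes higher in VHL-/- cells, 61 were also called higher in VHL+/+ cells and 104 had the same sign, with a median log2 fold change of 0.63 there against 0.74 in VHL-/- cells. Of the 45 lower genes outside the interferon list, 17 were also called lower and 44 had the same sign, with medians of -0.51 and -0.69. Of the 41 lower genes on the list, 7 were also called and 40 had the same sign, with medians of -0.41 and -0.94. Genes chosen for a call in the first contrast tend to be larger there, so the gap between the medians is a description only.

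At the level of single genes the largest rises recurred in VHL+/+ cells. IGSF3 read 7.19, 7.17 and 7.09 with SCR and 8.80, 8.77 and 8.74 with KDM5C shRNA in VHL+/+ cells (log2 fold change 1.62, adjusted p = 4.73e-10). AKR7A2 read 9.17, 9.35 and 9.19 and 10.99, 10.89 and 10.97 (log2 fold change 1.71, adjusted p = 2.36e-07). CCND1 read 9.46, 9.55 and 9.54 and 10.95, 10.82 and 10.67 (log2 fold change 1.30, adjusted p = 8.83e-06), a change close to the 1.34 of VHL-/- cells. ARPC4 (1.10), GAS6 (1.14), STMN3 (1.33), AKR7A3 (1.197) and C2CD2 (1.08) also rose by similar log2 amounts in both. The rises were smaller in VHL+/+ than in VHL-/- cells for HMGB2 (1.10 against 1.62), IQGAP1 (0.86 against 1.34), ADO (0.86 against 1.197), SLC31A1 (0.67 against 1.11) and RNY4 (0.59 against 1.08), by differences that did not pass the interaction test (adjusted p of 0.436 for IQGAP1 to 0.681 for ADO). Of the falls, MX1 read 8.48, 8.48 and 9.35 with SCR and 7.06, 7.52 and 8.09 with KDM5C shRNA (log2 fold change -1.21, adjusted p = 0.0215), a smaller log2 change than in VHL-/- cells by a difference that did not pass the interaction test. SFTA1P changed by -0.82 (adjusted p = 0.00904), SCG5 by -0.59 (adjusted p = 0.228) and EGLN3 by -0.04 (adjusted p = 0.92) in VHL+/+ cells.

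**Figure D4:**
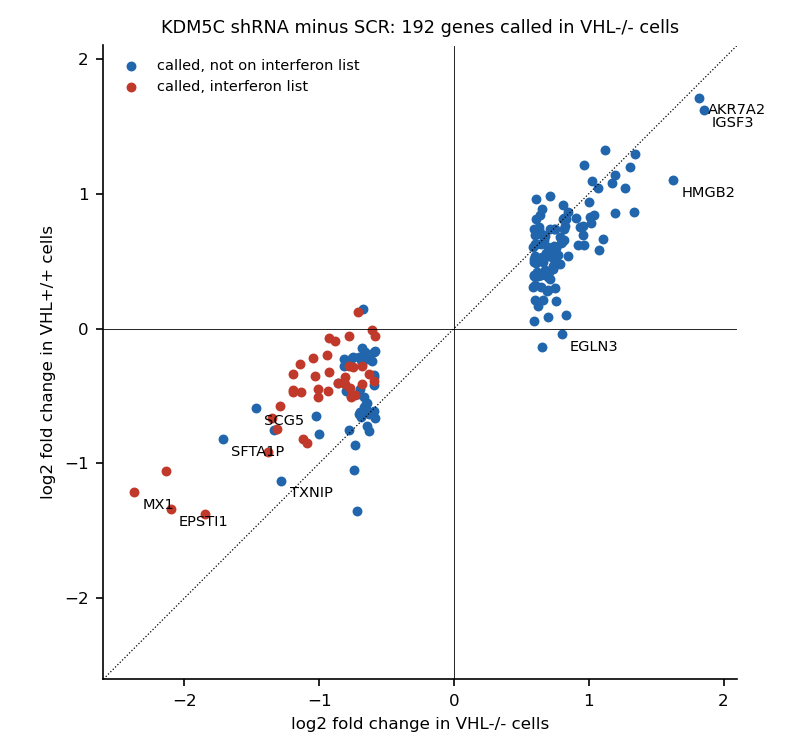
Each point is 1 of the 192 genes called in VHL-/- cells, with the log2 fold change of KDM5C shRNA over SCR in VHL-/- cells on the x axis and in VHL+/+ cells on the y axis, and the dotted line marks equal change. Nearly all points lie in the quadrants of equal sign, with EGLN3 near 0 in VHL+/+ cells.

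Tested as an interaction in limma, the difference between the backgrounds was called for 0 of 13141 genes (0%), and 1014 genes (7.72%) had an unadjusted p under 0.05, with a smallest adjusted p of 0.144. It called 13 genes when SCR replicate 3 of the VHL-/- cells was left out and 1 gene when SCR replicate 3 of the VHL+/+ cells was. After chip removal, the KDM5C shRNA arrays lay on opposite sides of the SCR arrays in the 2 backgrounds for 87 genes (0.662%). The interaction was -1.16 for MX1 (adjusted p = 0.463), 0.84 for EGLN3 (adjusted p = 0.354) and -0.90 for SFTA1P (adjusted p = 0.353) on the log2 scale. The gene of the 192 nearest to a difference was HTRA1, a secreted serine protease, which read 9.06, 9.15 and 10.05 with SCR and 9.75, 9.90 and 10.57 with KDM5C shRNA in VHL-/- cells and 9.32, 9.17 and 9.95 and 9.35, 9.16 and 9.55 in VHL+/+ cells (interaction 0.79, adjusted p = 0.245). Its call against SCR ended without the chip term (adjusted p = 0.372) and, for its fold, without SCR replicate 1 (log2 fold change 0.58). A p above the threshold does not show that the responses are alike.

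Between the KDM5C shRNA and the PBRM1 shRNA arrays in VHL-/- cells, 0 of 13141 genes (0%) were called. The SCR arrays do not enter these differences, only the spread behind their p-values and intervals, which was estimated over all 18 arrays. In limma, 707 genes (5.38%) had an unadjusted p under 0.05, with a smallest adjusted p of 0.813. PBRM1 itself differed by 0.09 (95% interval -0.17 to 0.34), so its depletion in the arrays labelled PBRM1 shRNA is not seen here. Left-out arrays gave 0 or 1 called gene, 1 without KDM5C shRNA replicate 3 and 1 without PBRM1 shRNA replicate 3. The precision was enough to bound many of the differences, since for 12714 genes (96.75%) the 95% interval of the difference lay within 1.5-fold in either direction. For 99 of the 106 higher genes, 39 of the 45 lower genes outside the interferon list and 32 of the 41 on it, the interval lay within these bounds. IGSF3 read 8.86, 8.86 and 8.76 in the PBRM1 shRNA arrays, and the difference from the KDM5C shRNA arrays was 0.02 (95% interval -0.12 to 0.16). CCND1 read 12.68, 12.59 and 12.27 (difference -0.05, 95% interval -0.30 to 0.20) and ARPC4 9.499, 9.60 and 9.44 (difference -0.13, 95% interval -0.29 to 0.03). For HMGB2 the difference was 0.14 (95% interval -0.17 to 0.46) and for MX1, whose arrays varied more, it was 0.16 (95% interval -0.44 to 0.75), so that MX1 was not bounded within 1.5-fold.

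The called genes with the largest differences between the hairpins were SCG5, EPSTI1, UGT1A6, DCP2 and CTGF, and none passed the adjustment. SCG5 read 10.49, 10.55 and 9.07 with PBRM1 shRNA against 9.42, 9.18 and 9.14 with KDM5C shRNA, with the gap on chip 1 (difference -0.79, 95% interval -1.33 to -0.24, adjusted p = 0.814). EPSTI1 differed by 0.44 (adjusted p = 0.907), UGT1A6 by 0.43 (adjusted p = 0.813) and DCP2 by 0.43 (adjusted p = 0.813), each higher with KDM5C shRNA. CTGF read 9.41, 8.94 and 8.32 with PBRM1 shRNA against 8.60, 8.54 and 8.28 with KDM5C shRNA (difference -0.42, adjusted p = 0.888). Over all genes the smallest p-values were those of SEC61G, TMEM99, C18ORF45, ENC1, B3GAT3 and COQ9, with differences of -0.36, 0.34, -0.35, -0.35, -0.35 and -0.31 and adjusted p of 0.813 each. None of these 6 was called against SCR. SEC61G, a subunit of the protein channel of the endoplasmic reticulum, read 12.77, 12.65 and 12.97 with KDM5C shRNA and 13.26, 13.09 and 13.12 with PBRM1 shRNA. Both hairpins were compared with the same SCR arrays, so the likeness of their changes against SCR was not used.

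**Figure D5:**
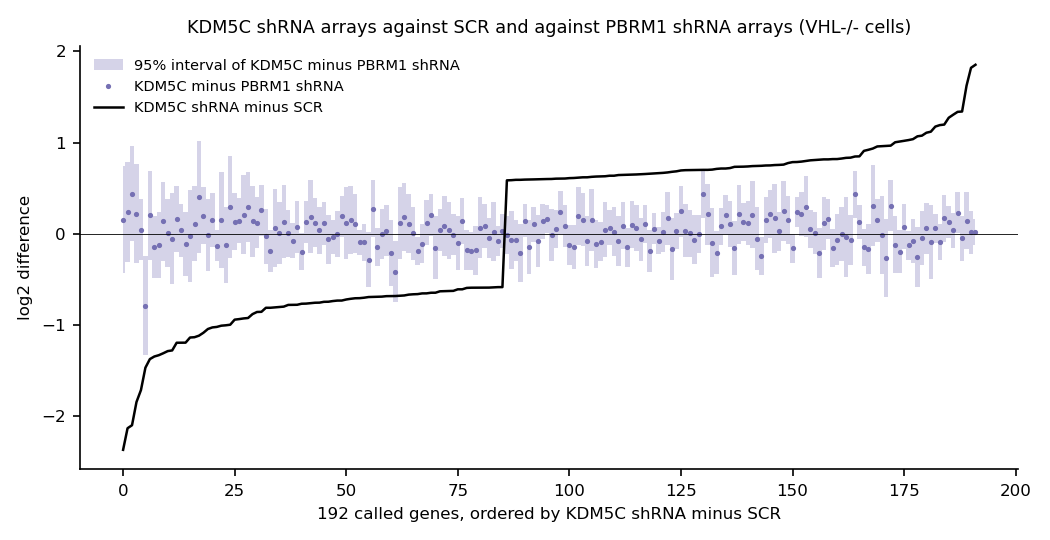
The 192 called genes are ordered along the x axis by their log2 fold change of KDM5C shRNA over SCR (black line), and the y axis gives log2 differences. Purple points with shaded 95% intervals show KDM5C shRNA minus PBRM1 shRNA for the same genes, which lie near 0 along the whole order, with SCG5 lowest at -0.79.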

How the data were processed

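RNA of 786-O cells was hybridised to Illumina HumanHT-12 V4 bead chips. Per the authors' methods, the deposited log2 values were made in GenomeStudio and limma by background correction to positive values, log2 transformation and quantile normalization. Probes present at a detection threshold of 0.05 were kept, and the probes of a gene were averaged. Whether a batch correction went into the deposited values is not given in the sources used here. Averaging and quantile normalization can hide a probe that differs and compress small changes near the background. Detection calls per array were not used. Precision is set by the small number of arrays.

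Differential expression was tested here with limma 3.58.1 in R 4.3.3 on the whole set of 18 arrays. The design held 6 group terms and the chip, with 11 residual degrees of freedom. P-values were adjusted by Benjamini-Hochberg over 13141 genes within a contrast, and a call required both an adjusted p under 0.05 and a 1.5-fold change. Differences within a chip have no test. The fit was tested on simulated data. Each fit was repeated without the chip term and with a replicate block in its place. It was also repeated with the spread taken from the arrays compared, median centring, cyclic loess, trend and robust moderation, the dimmest 0.25 of genes left out, a fold of 2 or none, and each array left out. The comparison and the 27 gene lists, which were written from general knowledge, were chosen with earlier results of these data known, so the lists are described by counts and medians and not tested.

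Named genes are those the study names for these arrays and the 15 largest rises and 15 largest falls off the interferon list among called genes without overlap after chip removal. They further include the 8 largest falls on that list, up to 3 called members each way of every list or else its largest change, and the 6 smallest p-values for KDM5C against PBRM1 shRNA and for the difference between backgrounds. Others named in the text, such as GSTP1, neighbouring genes, markers and the called genes that differed most between the hairpins, were chosen after their values were seen. In RefSeq's annotation of GRCh38.p14, 10777 symbols are current, 1973 are synonyms and 391 are neither. Of the 13141 genes, 10020 matched a RefSeq promoter and 12657 a position. The sequence of the KDM5C hairpin was not used here. Some members of the lists are counted but not reported here by name.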

Additional observations from a re-analysis of the deposited data

Results flagged for a closer look

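In 5 of the 6 genes with the smallest p for the difference between backgrounds, the KDM5C shRNA arrays lay entirely to one side of the SCR arrays in VHL-/- cells and to the opposite side in VHL+/+ cells once the chip was removed, as they did in 87 (0.662%) of all 13141 genes. These genes were picked by that p, so their pattern is a description only. The log2 difference of the effects, VHL-/- minus VHL+/+, was -0.662 for HGS, a sorting protein of endosomes, -0.5547 for COX15, a heme A synthase of mitochondria, 0.5882 for CMPK1, a pyrimidine nucleotide kinase, 0.698 for TCFL5, a transcription factor, and 0.6062 for GGA1, an adaptor of trafficking from the Golgi. None passed the interaction test in limma, with an adjusted p of 0.144 for HGS and 0.245 for each of the others. HGS changed by -0.27 in VHL-/- cells and 0.39 in VHL+/+ cells, and TCFL5, at 0.52, had the largest change of the 5 in VHL-/- cells. None of them was called against SCR in VHL-/- cells.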

How the results depend on the processing

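Of 192 genes called, 43 passed a threshold of 2-fold (19 higher, 24 lower) and 628 passed with none (316 higher, 312 lower). In VHL+/+ cells these counts were 23 and 551 of a main count of 150. Without the chip term, 140 genes were called, 55 of them lower, and 88 in VHL+/+ cells. The 45 lower genes outside the interferon list became 24 without the chip term, 5 at 2-fold and 257 with no fold threshold. With single arrays left out, the count ran from 156 to 206, that for KDM5C against PBRM1 shRNA from 0 to 1, and that for the difference between backgrounds from 0 to 13. List medians ran from 0.0802 to 0.1884 for DNA replication (lowest without KDM5C shRNA replicate 3), from -0.1887 to -0.0445 for cholesterol genes and from -0.2354 to -0.0583 for heat shock genes (both smallest without SCR replicate 3), with the cause not tested. The 41 lower genes of the interferon list became 31 to 47 and its median stayed between -0.638 and -0.523 over those arrays. No named gene changed sign where it was called. Of 85 named genes, 14 lost their call without the chip term, 4 when the spread came from the 6 arrays alone (5 gained one), 1 each with cyclic loess and with trend and robust moderation, and 0 with median centring. Replicate numbers were not a pairing by design. Deviations of the 2 groups correlated with r of 0.230, 0.277 and 0.564 within a number as deposited and 0.0001, -0.0097 and -0.0808 after chip removal, so the numbers shared the chip. With the replicate block in place of the chip term 191 genes were called, and of the named genes PSPH lost its call (adjusted p = 0.0533). Genes near the background, where the dimmest group held 2 calls, limit what can be seen.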
